A study of Mus musculus with 10 samples.

Results

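The comparison described here is that of wild type (WT) mouse bladders 4 h after instillation of LPS, the lipopolysaccharide of Gram-negative bacteria, with WT bladders 24 h after saline. Its members are all probes of the array for which spot intensities could be recovered from the deposited scores, 4794 of 5030 (95.3%), measured on 1 array per condition. In the series 10 plastic arrays (Clontech Atlas mouse, 5 K) were each hybridized with radioactively labelled cDNA from 8 bladders homogenized together. Female C57BL/6J (WT) and PAR1-/- mice, which lack the thrombin receptor PAR1 and were enriched in the C57BL/6J background, received LPS at 100 μg/ml, the neuropeptide substance P (SP), or saline through a transurethral catheter under anesthesia. The arrays are of WT LPS 4 h, WT LPS 24 h, WT SP 4 h, WT SP 24 h and WT saline 24 h. Another 5 cover the same substances and times in PAR1-/- mice. The SP dose on the sample labels is higher for PAR1-/- than for WT mice, whereas the paper's methods give the WT dose for both. SP intensities given below for both genotypes are therefore not at the same labelled dose. Saline bladders were taken at 24 h, so LPS and the time after instillation cannot be told apart. There is no second pool of either condition, so no test was possible and every ratio below compares these pools only. In whole bladders, fewer cells of a type and less RNA per cell cannot be told apart.

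LPS is sensed by the TLR4, MD-2 (Ly96) and CD14 complex. Through Myd88 and Traf6 its signal reaches NF-kappaB, MAP kinase and interferon regulatory factors, whose early targets include immediate early transcription factors, chemokines, adhesion molecules and feedback inhibitors. In the bladder, LPS meets the urothelium first, and mast cells, sensory nerves and leukocytes recruited from the blood take part in the inflammation that follows. PAR1, encoded by F2r, is a G protein-coupled receptor that thrombin activates by cutting its extracellular end.

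Promoters of 3 genes with ratios or bounds above 3 are shown, because each holds the binding motif of a factor that acts downstream of TLR4 or of immediate early genes. The sequences are from RefSeq (GRCm38.p6), read 5′ to 3′ on the gene's strand, and cover the 250 bases before the start of the gene, with the motif in capitals. Irf1 (interferon regulatory factor 1, chr11:53769764-53770013, plus strand) holds an NF-kappaB motif that begins 13 bases before the start. F2r (chr13:95618467-95618716, minus strand) and Mmp7 (matrilysin, chr9:7691840-7692089, plus strand) hold an AP-1 motif (TGANTCA) that begins 204 and 63 bases before it.
Irf1: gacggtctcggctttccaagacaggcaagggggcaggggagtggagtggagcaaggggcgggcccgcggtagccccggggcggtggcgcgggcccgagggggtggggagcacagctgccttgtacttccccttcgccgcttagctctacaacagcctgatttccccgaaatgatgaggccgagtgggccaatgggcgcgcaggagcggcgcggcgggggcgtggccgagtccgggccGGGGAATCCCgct
F2r: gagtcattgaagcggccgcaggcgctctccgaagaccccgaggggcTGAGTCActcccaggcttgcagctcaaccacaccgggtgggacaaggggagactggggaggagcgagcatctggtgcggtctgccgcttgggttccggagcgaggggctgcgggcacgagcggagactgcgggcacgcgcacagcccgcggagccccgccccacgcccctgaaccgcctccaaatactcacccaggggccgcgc
Mmp7: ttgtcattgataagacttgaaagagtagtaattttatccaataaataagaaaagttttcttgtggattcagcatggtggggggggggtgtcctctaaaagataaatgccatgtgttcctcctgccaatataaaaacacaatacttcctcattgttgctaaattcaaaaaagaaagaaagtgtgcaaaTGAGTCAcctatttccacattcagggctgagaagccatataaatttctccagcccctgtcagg

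The WT LPS 4 h array was the brighter of the pair, with a summed intensity of 161607 and a median of 19, against 71989 and 11 on the WT saline array. A probe counted as above background when its intensity exceeded the most frequent intensity of its array by 3 SD, which is 21.7 on the WT LPS 4 h array and 12.6 on the WT saline array. By this measure 1899 probes (39.6%) were above background after LPS and 1500 (31.3%) after saline. Intensities were normalized by robust linear regression over the 502 probes above background on all 10 arrays, and values under background were raised to the threshold. The fold values below are therefore not plain quotients of the intensities printed with them. A probe with saline at background has a lower bound ("at least") and one with LPS at background an upper bound ("at most"). Of the 4794 probes, 1130 had a ratio, 769 a lower bound and 370 an upper bound, and 2525 had no value because a ratio could not be told from background.

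The link between a value and the gene it is named for has a measured limit. Where a gene had several probes, their normalized levels over the 10 arrays correlated with a median of 0.14 (33 pairs), against 0.32 over all pairs of probes. The tissue label was checked against 14 markers of urothelium, smooth muscle and fibroblasts, of which 5 were above background on the WT LPS 4 h array and 6 on the WT saline array. The urothelial markers Upk2 and Krt18, the smooth muscle markers Actg2 and Tpm2 and the matrix genes Col1a2, Dcn and Lum were at background on both. Krt19 was measured at intensities of 30 after LPS and 17 after saline, a ratio of 0.96, and Acta2, the smooth muscle actin, at 194 and 23. Of 33 probes of ribosomal proteins, which every cell uses, 39.4% were above background after LPS and 30.3% after saline, close to the shares of all probes. Gene names are used below as the array annotation gives them.

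More probes were higher than lower after LPS. Of the 2269 probes with a ratio or bound, 124 (5.46%) were above 3 and 20 (0.881%) below 1/3. These 124 comprise 65 ratios and 59 lower bounds and name 117 genes, with 7 probes unnamed, and the 20 comprise 17 ratios and 3 upper bounds and name 18 genes. Over all 2269 probes the median log2 ratio was 0.15, a fold of 1.11. Bounds enter this median, and those of the gene lists and sets below, at their own value, so these are not medians of measured ratios. The share above 3 of each gene list below is to be read beside 5.46%, which a single probe exceeds in a list of few values. The spread of log2 ratios measured on both arrays was 0.86 (SD over 1130 probes), and 7.26% of them lay beyond 3-fold. The 2 saline arrays, PAR1-/- over WT, compare unchallenged pools taken at the same time. Over 1123 probes measured on both, the SD was 0.46 and 0.534% lay beyond 3-fold. That pair differs in genotype, so it is no replicate of either condition. Its arrays were also closer in summed intensity (69106 and 71989) than the LPS pair (161607 and 71989), so the 2 spreads are not measured under like conditions. The probes above 3 were dim after saline, with a median intensity of 13 and a range of 6 to 54, and had a median of 132 and a range of 68 to 881 after LPS. Among the 65 ratios, 42 rest on a saline intensity under 20, where a change of 1 unit in the recorded whole number changes the ratio by more than 5%. The probes below 1/3 had a median intensity of 37 after LPS and 65.5 after saline. With values under background raised to the threshold, none was below 1/3 without normalization between arrays.

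**Figure D1:**
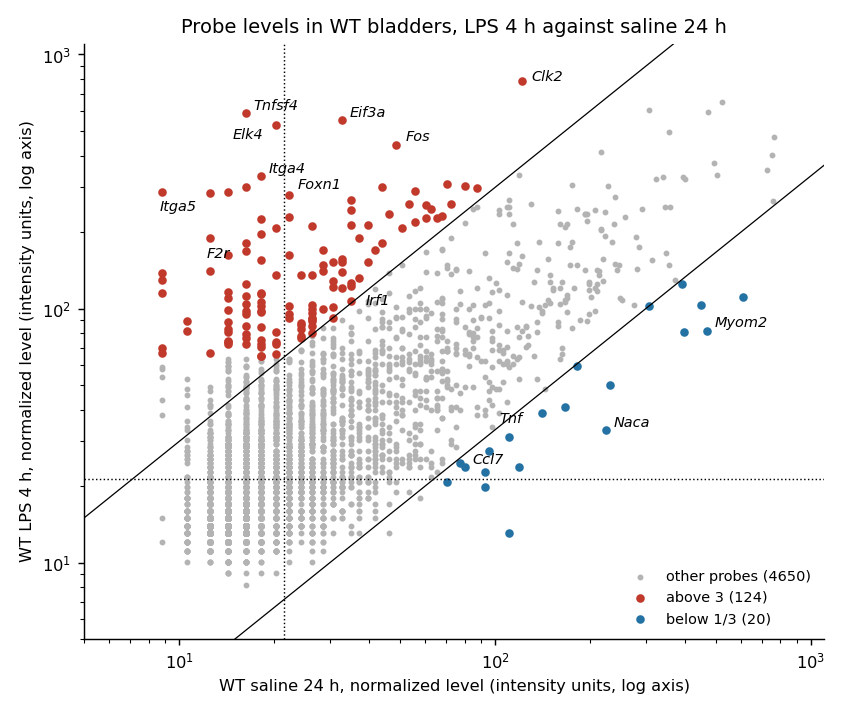
Normalized level of each of 4794 probes on the WT LPS 4 h array (vertical, log axis, intensity units) against the WT saline 24 h array (horizontal, log axis). Dotted lines mark the background thresholds (21.4 on both), solid lines 3-fold differences. The 124 probes above 3 lie mostly at low saline levels, and 59 of them lie under the saline threshold, where only a bound is known, while the 20 below 1/3 lie above that threshold.

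Ligands, receptors and adhesion molecules held the highest bound of all. Tnfsf4, which encodes OX40 ligand, a costimulator of T cells, had an intensity of 653 on the WT LPS 4 h array and 10 on the WT saline array, and was at least 27.4-fold higher after LPS. On the other 8 arrays its intensity lay between 9 and 32, far under the value on the WT LPS 4 h array. Its receptor Tnfrsf4 was measured at 50 after LPS and 12 after saline, at least 2.26-fold. Of 28 probes of TNF ligands and receptors, 17 had a ratio or bound, and Tnfsf4 was the 1 above 3. That is 5.88%, against 5.46% of all probes with a value. Among these 17 the median fold was 1.02, which is itself a lower bound. Tnf itself had intensities of 35 after LPS and 45 after saline, a ratio of 0.349, which does not pass 1/3.

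The α4 and α5 integrin chains, receptors for VCAM-1 and fibronectin, followed. Itga4 had 362 after LPS and 11 after saline (at least 15.5-fold), and Itga5 had 309 after LPS and 8 after saline (at least 13.3-fold). On every other array both were at background, between 8 and 15 for each. Itgav had 102 after LPS and 11 after saline (at least 4.51-fold), and unlike the other two was also above background on WT SP 4 h (76) and on the 4 challenged PAR1-/- arrays, at 40 after LPS 4 h, 75 after LPS 24 h, 116 after SP 4 h and 65 after SP 24 h. Of 28 probes of integrins and leukocyte adhesion molecules, 14 had a ratio or bound, with 3 above 3, none below 1/3 and a median fold of 1.31. Those above 3 were 21.4% of the list's values, against 5.46% of all probes with a value. Itgb1, the β1 chain and a partner of all 3 α chains, had intensities of 58 after LPS and 17 after saline, a ratio of 1.82. Icam1, Vcam1 and Pecam1 were at background after LPS.

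F2r, the gene of PAR1, had an intensity of 195 on the WT LPS 4 h array and 10 on the WT saline array, at least 8.47-fold. It was 15 on WT LPS 24 h, 22 on WT SP 4 h and 11 on WT SP 24 h, all at background. In PAR1-/- bladders it was 17 after LPS 4 h, 18 after LPS 24 h, 51 after SP 4 h, 21 after SP 24 h and 11 after saline. F2r was thus above background on 3 arrays, those of WT LPS 4 h and, at lower intensity, PAR1-/- SP 4 h and PAR1-/- SP 24 h. The position of the probe in F2r and in its disrupted part was not analysed here, so these values do not check the genotype label. The related receptors F2rl3 (22 after LPS and 9 after saline, at least 1.02-fold) and F2rl2 (23 and 11, at least 1.06-fold) were just over background after LPS. F2, the gene of prothrombin, had 146 after LPS and 35 after saline, a ratio of 1.89. F3, tissue factor, the starter of coagulation, had 95 and 77, a ratio of 0.484, and Thbd, thrombomodulin, had 38 and 33, a ratio of 0.547. Of 19 probes of coagulation, plasminogen activation and PAR, 11 had a ratio or bound, F2r alone was above 3, and the median fold was 1.06.

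Of the tachykinin genes, Tac2 alone had a ratio or bound. Tac2, which encodes neurokinin B, had 224 after LPS and 12 after saline, at least 9.70-fold. It was bright on other challenged arrays too, with 249 on WT SP 4 h and between 175 and 448 on the 4 challenged PAR1-/- arrays. Tac1, the gene of SP, had 16 after LPS and 10 after saline, and Tacr1, the SP receptor, had 14 and 9, all at background. Tacr1 reached 70 on WT SP 4 h and was at background on the other 9 arrays. Of 6 probes for SP and neurogenic inflammation, Bdkrb1, a bradykinin receptor, was the 1 with a ratio (35 and 20, 0.918). Stap1, an adaptor protein of B cell signalling, had 248 after LPS and 13 after saline, a ratio of 10.3.

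**Figure D2:**
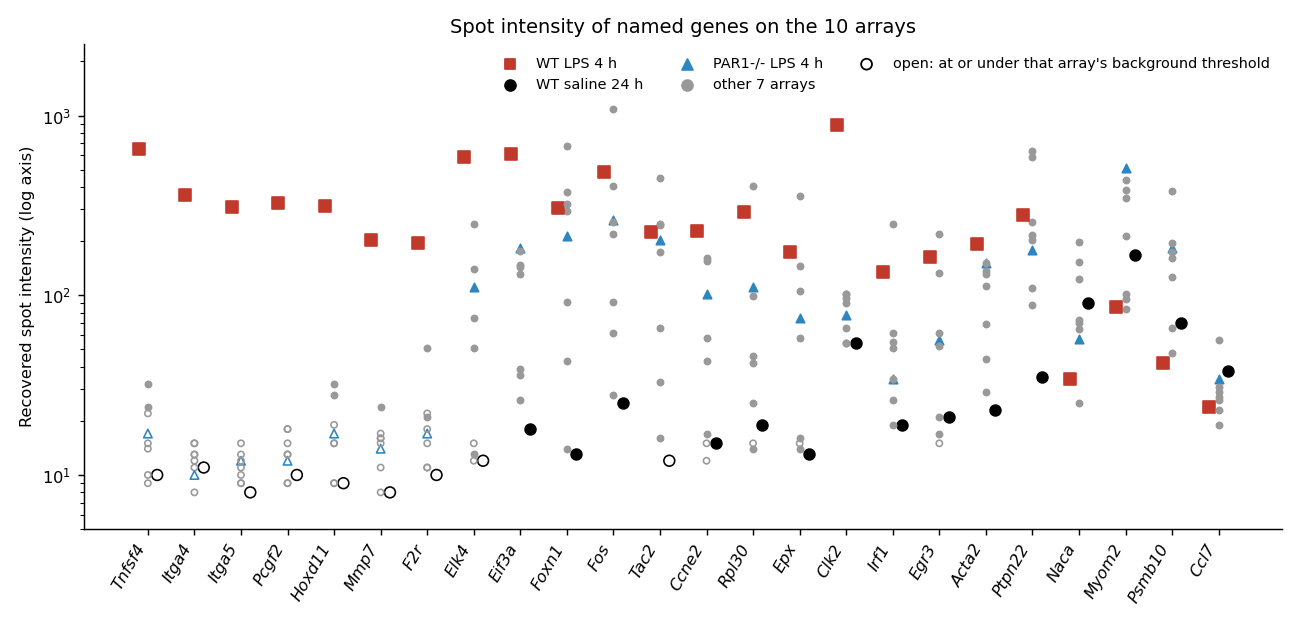
Recovered spot intensity (log axis) of 24 named genes on the 10 arrays, with WT LPS 4 h as red squares, WT saline 24 h as black circles, PAR1-/- LPS 4 h as blue triangles and the other 7 arrays in grey; open symbols are at or under the background threshold of their array. Tnfsf4, Itga4, Itga5, Pcgf2, Hoxd11, Mmp7, F2r and Clk2 were far brighter on the WT LPS 4 h array than on any other, whereas Foxn1, Fos, Tac2, Rpl30 and Epx had intensities as high or higher on other arrays. These are intensities before normalization, after which the WT LPS 4 h levels of Foxn1, Fos, Tac2 and Rpl30 were the highest of the 10 and Epx was at 162 on WT LPS 4 h and 164 on WT SP 4 h.

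Immediate early genes, which cells transcribe within minutes of a stimulus, were represented by 14 probes, of which 6 had a ratio or bound. Fos had 488 after LPS and 25 after saline, a ratio of 9.10, and Egr3 had 163 and 21, a ratio of 3.86. After normalization Fos was at a level of 442 on WT LPS 4 h and 436 on WT SP 4 h, a brighter array on which its intensity was 1080. Its intensity lay between 218 and 407 on the challenged PAR1-/- arrays, at 92 on WT LPS 24 h and 62 on WT SP 24 h. No other member passed 3. Nr4a1 was at least 1.51-fold, Klf4 had a ratio of 1.13, and Egr1 was at most 0.576-fold, while Jun, Jund, Egr2, Ier2 and Dusp1 were at background on both arrays. The median fold of the 6 was 1.31, and 33.3% of them were above 3, against 5.46% of all probes with a value.

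Other transcription factors and chromatin genes stood among the highest. Elk4, a serum response factor partner, had 587 after LPS and 12 after saline, at least 24.7-fold, and 249 on WT SP 4 h and 111 on PAR1-/- LPS 4 h. Foxn1, a forkhead factor of thymic epithelium and hair follicles, had 306 and 13, a ratio of 12.6. Its WT saline value was low among the arrays, since it had 43 on PAR1-/- saline, and against that array the Foxn1 ratio is 2.63. Hoxd11, a homeobox gene, had 313 after LPS and 9 after saline, at least 13.4-fold, with at most 32 on any other array. Pcgf2, a Polycomb group RING finger gene, had 327 and 10, at least 14.0-fold, and was at background on the other 9 arrays, at 18 or less. Of the 5 Polycomb and trithorax probes with a value, Pcgf2 alone was above 3, and their median fold was 1.24. Smad7, an inhibitor of TGF-β signalling, had 175 and 9, at least 7.63-fold. Of 66 homeobox probes, 26 had a ratio or bound: Hoxd11 was above 3, Hoxc4 (40 after LPS and 61 after saline, ratio 0.276) was below 1/3, and the median fold was 1.14. Hoxd11 makes 3.85% of these above 3, against 5.46% of all probes with a value. Hoxd10 and Hoxd13, neighbours of Hoxd11, were bright and had ratios of 1.15 (300 and 95) and 0.95 (221 and 87).

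Sufu, a suppressor of Hedgehog signalling, had 313 after LPS and 6 after saline, at least 13.4-fold, but its saline value is the lowest that the WT saline array holds. Of the 13 probes at that value, 11 belong to a set of 12 probes that share the lowest value, 9, on the WT LPS 24 h array, and 6 of the 12 are among the 124 probes above 3. These are Sufu, Olfr69, Cdh17, Traf5, Ajuba and a probe with no gene. Against PAR1-/- saline, where Sufu was at 44, its ratio is 2.62. For these probes the recovered intensities may share an unknown factor, and the bounds depend on it. Without the 12 probes, 118 were above 3. Sufu is the 1 of 6 Hedgehog probes with a ratio or bound that was above 3 (median fold 1.12), and Traf5 (73 after LPS and 6 after saline, at least 3.26-fold) the 1 of 6 such NF-kappaB pathway components (median fold 1.18).

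Single genes of translation, RNA processing and the ribosome had some of the highest ratios. Eif3a, a scaffold subunit of translation initiation factor 3, had the highest ratio with both arrays above background, 16.8, with 611 after LPS and 18 after saline. It was above background on all 10 arrays, with 26 to 183 on the other challenged arrays and 39 on PAR1-/- saline. Its ratio is 9.87 against the mean of both saline arrays and 5.82 against PAR1-/- saline. Against PAR1-/- saline the ratios of Elk4 (21.6), Ugcg (7.72), Fos (7.02) and Epx (6.05) are higher, and Stap1 is at least 10.1-fold. Clk2, a kinase of splicing factors, was the brightest of all 4794 probes on the WT LPS 4 h array, at 881, against 54 after saline (ratio 6.44) and 54 to 102 on the other 8 arrays. Fbl, the nucleolar methyltransferase fibrillarin, had 243 and 11 (at least 10.5-fold), and Acin1, a splicing-associated protein, 181 and 10 (at least 7.88-fold). Rpl30, a large-subunit ribosomal protein, had 290 and 19, a ratio of 7.62. Eif3a was the 1 of 7 translation factors with a value that passed 3 (median fold 1.39). Of 33 ribosomal protein probes, 17 had a ratio or bound, with Rpl30, Rpl26 and 1 probe of Rps29 above 3, none below 1/3 and a median fold of 1.25. Their share above 3 was 17.6%, against 5.46% of all probes with a value. The 3 probes of Rps29 disagreed: they had 108 after LPS and 13 after saline (ratio 4.59), 15 and 16 (at most 0.752-fold), and 21 and 11, which is background on both arrays.

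Of 51 cell cycle probes 22 had a ratio or bound, with 3 above 3, none below 1/3 and a median fold of 1.47. The share above 3 was 13.6%, against 5.46% of all probes with a value, whose median fold was 1.11. Ccne2 (cyclin E2, which drives entry into S phase) had 228 after LPS and 15 after saline, a ratio of 8.0. Cdc45, a part of the replicative helicase, had 145 and 14, a ratio of 5.60, and Pcna, the sliding clamp of DNA polymerase, had 83 and 10, at least 3.70-fold. Cdc45 and Pcna were at or near background on all other arrays, at no more than 23 and 18, while Ccne2 had 155 on WT SP 4 h and 101 on PAR1-/- LPS 4 h. E2f1, a transcription factor of S phase, had 126 and 22, a ratio of 2.85.

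Among the remaining genes with the highest values, Epx, the eosinophil peroxidase, had 174 after LPS and 13 after saline, a ratio of 7.30, and Prg3, an eosinophil granule protein, had 116 and 9, at least 5.12-fold. Ugcg, the first enzyme of glycosphingolipid synthesis, had 265 and 19 (ratio 6.98). Laptm4a and Snx1, of lysosomes and endosomal sorting, had 327 and 23 (ratio 6.82), and 315 and 28 (ratio 5.20). Ap3s2, an adaptor subunit of endosomal sorting, had 158 and 16 (ratio 5.19), and Ccn1, a matricellular protein, had 230 and 19 (ratio 6.08). Mmp7, matrilysin, had 204 and 8, at least 8.85-fold, with at most 24 elsewhere. Slc11a2, an iron transporter, had 212 and 11, at least 9.19-fold. Thumpd3 had 182 and 16 (ratio 5.95), and Sptb, the erythroid β spectrin, 166 and 11 (at least 7.25-fold).

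Of 17 probes for LPS sensing and TLR signalling, 8 were above background after LPS and 5 after saline (39.6% and 31.3% of all probes). Of the 17, 9 had a ratio or bound, none was beyond 3-fold in either direction, and the median fold was 1.02. That median is itself a lower bound. Ly96 had 48 after LPS and 11 after saline, at least 2.17-fold, and Traf6 had 34 and 9, at least 1.55-fold. Myd88 had 129 and 41, a ratio of 1.38. Cd14 was at background, at 13 and 9, and Tlr4 and F2rl1 were not analysed here. Of 34 probes of cytokines, chemokines and NF-kappaB targets, 13 were above background after LPS and 12 after saline. Of the 34, 18 had a ratio or bound, 1 was above 3, 1 below 1/3, and the median fold was 1.04. The share above 3, 5.56%, was near the 5.46% of all probes with a value. The chemokines Ccl2 (124 and 28, ratio 2.10) and Ccl4 (128 and 29, ratio 2.08), which attract monocytes, and Cx3cl1 (45 and 8, at least 2.04-fold) were higher without passing 3. Ccl7 had 24 after LPS and 38 after saline, a ratio of 0.296. Il1b, Il6, Cxcl2, Nfkbia and Tnfaip3 were at background on both arrays, so their response was not detectable here.

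Irf1, an NF-kappaB target that drives interferon-responsive genes, was the 1 member of that list above 3. It had 134 after LPS and 19 after saline, a ratio of 3.60. Against PAR1-/- saline its ratio is 2.19 and against the mean of both saline arrays 2.81, under 3 in each. Irf1 had 250 on WT SP 4 h, 55 on WT LPS 24 h and 34 on PAR1-/- LPS 4 h. Of 38 probes for the interferon response and antigen presentation, 20 had a ratio or bound, with Irf1 above 3, Psmb10 below 1/3 and a median fold of 1.02. Here too the share above 3, 5%, was near the 5.46% of all probes with a value. Psmb10, a subunit of the immunoproteasome, had 42 and 70, a ratio of 0.245, while Psme1, a subunit of the interferon-inducible proteasome activator, had 182 and 22, a ratio of 4.07. Isg15, B2m, Tap1 and Stat2 were at background on both arrays. Of 18 probes of feedback inhibitors 7 had a ratio or bound, and Ptpn22, a phosphatase of lymphocyte receptors, was above 3, with 280 and 35 (ratio 3.55).

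Of 20 oxidative stress probes, 10 had a ratio or bound and the median fold was 1.46. Fth1, the ferritin heavy chain, was above 3 with 94 after LPS and 15 after saline (ratio 3.38). That call is lost under 4 other normalizations, where the Fth1 ratio is 2.66 to 2.97, and against PAR1-/- saline (2.28). Ftl1, the light chain, had 67 and 41 (ratio 0.732). None of the 11 apoptosis probes with a value passed 3-fold, with Casp1 closest at 65 and 11 (at least 2.91-fold). None of the 16 heat shock probes with a value was beyond 3-fold, and their median was 0.852. None of the 10 probes of eicosanoid synthesis with a value was beyond 3-fold either: the phospholipase Pla2g4a had 122 and 24, a ratio of 2.49, and Ptgs2, the inducible cyclooxygenase, was at most 0.882-fold. Of 74 probes for genes that the study chose on these samples, 38 had a value, with Fth1 and a probe of Rps29 above 3, Ccl7 below 1/3 and a median fold of 1.02. The share above 3 was 5.26%, near the 5.46% of all probes with a value. The study required a ratio above 3 in WT bladders after LPS or SP at 4 or 24 h. It also required no change after either substance in PAR1-/- bladders at any of these times. Its genes therefore need not pass 3 in this comparison.

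**Figure D3:**
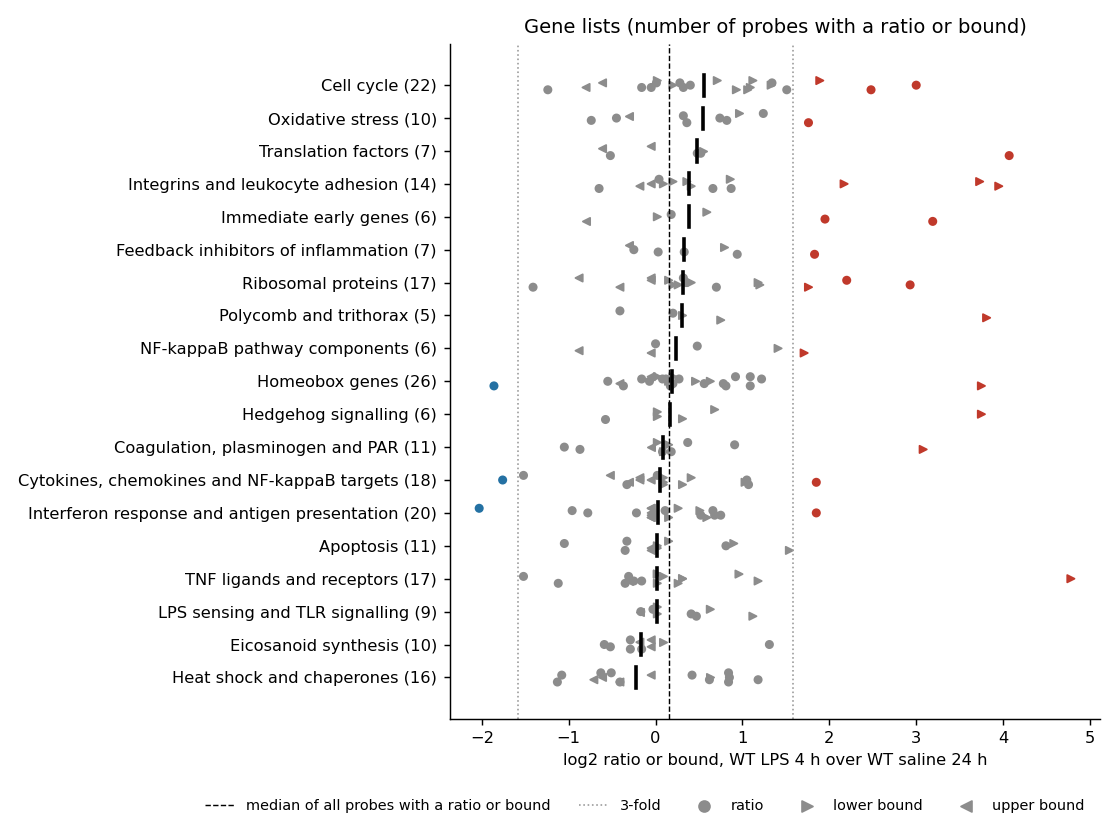
Log2 ratio or bound (WT LPS 4 h over WT saline 24 h) of each probe in 19 gene lists with at least 5 values, with circles for ratios and triangles for bounds, red above 3 and blue below 1/3; black bars are list medians and the dashed line is the median of all probes (0.15). The list medians ran between -0.23 and 0.56. No list held more than 3 red points: Tnfsf4 and Eif3a were the only ones of their lists, while Itga4, Itga5 and Itgav shared a list.

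Of 22 probes for neutrophil, macrophage, lymphocyte and mast cell markers, 7 were above background after LPS and 9 after saline, where all probes had shares of 39.6% and 31.3%. Their summed intensities were 747 and 411, a smaller step than that of all probes (161607 and 71989). Among the 11 with a value the median fold was 0.831, 3 were above 1 and 8 below it, and none was beyond 3-fold. The 3 were Cxcr2 of neutrophils (at least 1.37-fold), Fcgr1 of macrophages (ratio 1.23) and Ms4a2 of mast cells (at least 1.15-fold). S100a8 was at background on both arrays, and S100a9, its partner in neutrophils, was at most 0.612-fold. Csf1r, the receptor of macrophage colony-stimulating factor, had 22 and 31, a ratio of 0.347, and Cpa3, the mast cell carboxypeptidase, had 354 and 146, a ratio of 0.809. Among markers of the bladder wall, Acta2 had a ratio of 4.10 and Myh11, the smooth muscle myosin, was at least 2.65-fold (59 after LPS and 11 after saline). The other smooth muscle markers with a value went the other way, Cnn1 at most 0.882-fold and Tagln at most 0.964-fold. The Acta2 and Ptpn22 ratios rest on the WT saline array: on PAR1-/- saline these genes had 112 and 110, and against that array their ratios are 0.522 and 0.762. Of the endothelial markers, Tie1 (194 after LPS and 52 after saline, ratio 1.55) and Tek (37 and 11, at least 1.69-fold) had a value, and of the nerve and glial markers Prph (26 and 13, ratio 1.15). The part of cell composition in these results was not tested.

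The genes with the lowest values had varied roles. Naca, a chaperone of nascent chains at the ribosome, had 34 after LPS and 90 after saline, a ratio of 0.148. Myom2, a myomesin of the sarcomere, had 86 and 167 (ratio 0.174), and B9d1, of the ciliary transition zone, had 118 and 207 (ratio 0.183). Dpagt1, the first enzyme of N-glycan assembly, was at background after LPS with 13, against 50 after saline, at most 0.193-fold. It was also at 11 on PAR1-/- LPS 4 h, against 83 on PAR1-/- saline, and at 155 on WT LPS 24 h. Ppp1r17 (85 and 145, ratio 0.204), Slc26a4, an anion exchanger (52 and 92, ratio 0.218), and Rnf14 (109 and 161, ratio 0.229) came next. The other 8 of the 15 lowest named genes were Fancc, Usp2, Psmb10, Hoxc4, Serinc3, Strap, Ccl7 and Fabp9, between 0.231 and 0.306. Since the WT LPS 4 h array was the brighter of the pair, the intensities of the 20 probes were 0.26 to 0.93 times their saline intensities before normalization.

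The 124 probes above 3 differed in how many arrays showed them. In all, 13 (10.5%) were above background on the WT LPS 4 h array alone and 37 (29.8%) on all 10 arrays. Among the 1899 probes above background on this array, the shares were 6.11% and 26.4%. The 13 are Itga4, Pcgf2, Itga5, Lmo4, Ppy, Fbn2, Dnmt3b, Anxa11, Myo1a, Pcna, Prf1, Plrg1 and Clec3b. Probes above background on 1 array alone numbered 116 on WT LPS 4 h, 119 on WT SP 4 h and 0 to 79 on the other 8 arrays, and those also more than 3 times over its threshold numbered 13, 7 and 0 to 3 on the same arrays. Of the 124 probes, 106 (85.5%) were above background on WT SP 4 h, 99 (79.8%) on PAR1-/- LPS 4 h, 76 (61.3%) on WT SP 24 h, 42 (33.9%) on WT LPS 24 h and 65 (52.4%) on WT saline. Of the 1899 probes above background on WT LPS 4 h, the shares on these arrays were 84.0%, 79.2%, 58.1%, 29.4% and 59.5%. The 124 were selected for a high WT LPS 4 h value over WT saline. Their share on WT saline and their counts of arrays therefore follow in part from that selection. The counts on WT LPS 24 h and on all 10 arrays are limited by the WT LPS 24 h array, on which 4145 of 4794 probes (86.5%) hold the value 15. Its threshold, 33, rests on the 12 probes under its mode. Without it 798 probes were above background on the other 9 arrays, against the 502 on all 10 used for normalization.

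**Figure D4:**
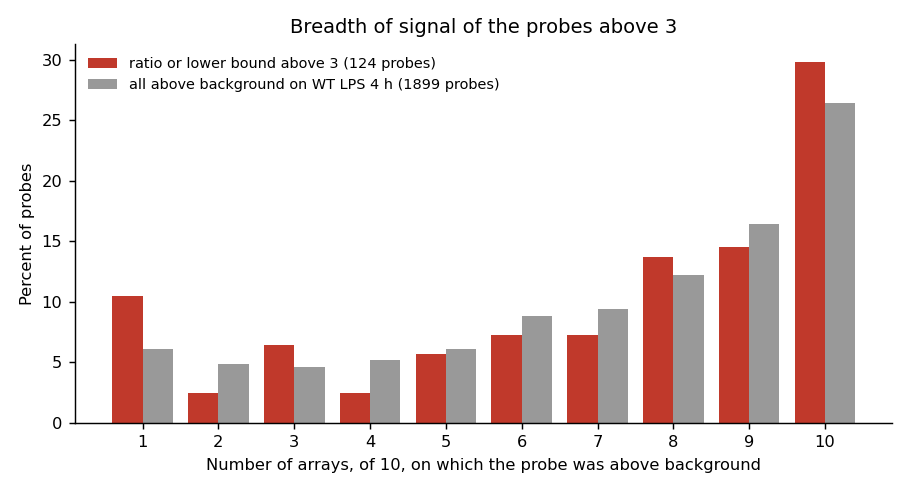
Share of probes (percent, vertical) by the number of arrays, of 10, on which they were above background (horizontal), for the 124 probes with a ratio or lower bound above 3 (red) and all 1899 probes above background on the WT LPS 4 h array (grey). The shares at 1 array are 10.5% and 6.11%, and at all 10 arrays 29.8% and 26.4%. The red probes were selected by their values on WT LPS 4 h and WT saline, which are among the 10 arrays.

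In PAR1-/- bladders, LPS at 4 h was compared with PAR1-/- saline, on arrays other than those above. There 32 of 1743 probes with a value (1.84%) were above 3 and 27 (1.55%) below 1/3. Of the 124 probes above 3 in WT bladders, 92 had a value in PAR1-/- bladders, with a median fold of 1.51, against 0.958 over all probes with a value. Of these 92, 13 were above 3, none was below 1/3 and 22 were below 1. The 11 named genes above 3 in both genotypes were Elk4, Tac2, Fos, Ccne2, Sptb, Laptm4a, Thumpd3, Pacsin2, Jak3, Ercc5 and Zbtb20. In PAR1-/- bladders after LPS, Tac2 was 4.88-fold and Laptm4a 3.84-fold higher than after saline, and Fos 3.09-fold, with 262 after LPS and 28 after saline. The remaining 32 of the 124 had no value in PAR1-/- bladders, because they were at background on both arrays or gave no bound beyond 1. Among them, Tnfsf4, Itga4, Itga5, Pcgf2, Hoxd11, Mmp7 and F2r were at background on both. Across the 928 probes above background on all 4 arrays, the log2 ratios of the 2 genotypes had a Pearson correlation of 0.38 and a Spearman correlation of 0.36. These are over probes, which share the arrays and are not independent replicates, and no test of the difference between genotypes was possible with 1 array each.

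Motifs were searched on both strands in RefSeq promoters from 250 bases before to 50 after the start. Of the 117 named genes above 3, 88 had such a promoter. The AP-1 motif was found in 9.1% of them, against 9.0% of all 27025 promoters, the NF-kappaB motif in 8.0% against 5.1%, the ISRE core (GAAA, any 2 bases, GAAA), part of the element bound by interferon regulatory factors, in 5.7% against 4.0%, the CRE (TGACGTCA) in 2.3% against 2.0%, and the CArG box in 1.1% against 1.8%. Of the genes with a ratio or bound, 8.5% held the AP-1 motif and 7.7% the NF-kappaB motif, near the shares of those above 3. A match describes the letters in the window and not the binding of a factor.

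The count above 3 moved with the scale of the arrays. Without normalization, 501 probes were above 3 and none below 1/3. With 5 other normalizations the counts were 92 to 119 above 3 and 9 to 58 below 1/3. Of the 124 probes, 79 were above 3 under the reported normalization and the 6 others, among them Tnfsf4, Elk4, Itga4, Itga5, Itgav, Pcgf2, Hoxd11, Eif3a, Foxn1, Fos, Egr3, F2r, Irf1 and Clk2. All of these use WT saline. With PAR1-/- saline in its place, 106 probes were above 3, of which 85 were among the 124. Besides Foxn1, Sufu, Irf1, Fth1, Acta2 and Ptpn22, genes described above that were not beyond 3-fold there include Traf5 (1.41), Rps29 (2.61), Rpl26 (2.29), Usp2 (0.46), Psmb10 (0.334), Hoxc4 (0.387), Serinc3 (0.353), Strap (0.528) and Ccl7 (0.606), and the Rpl30 ratio was 4.87.

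**Figure D5:**
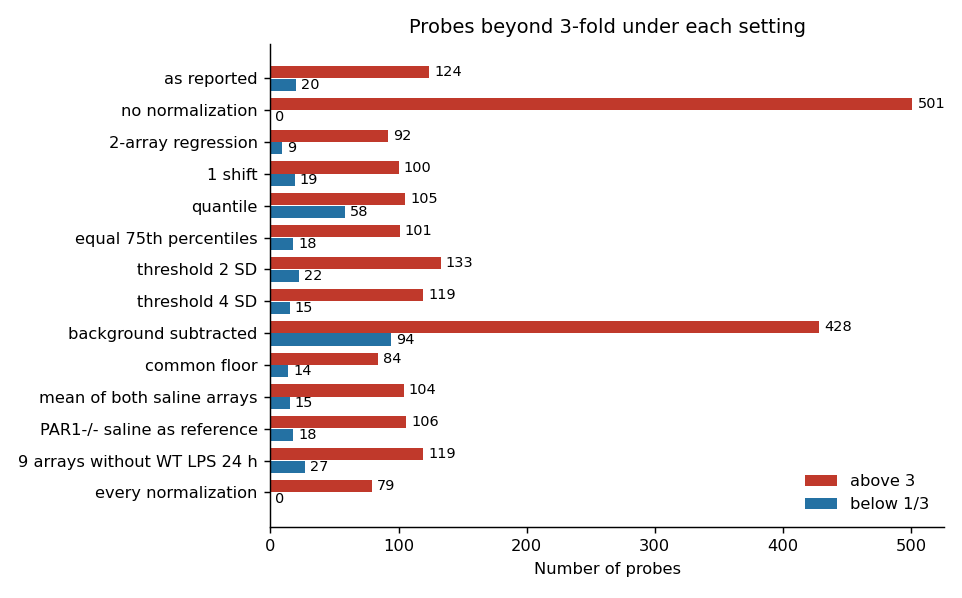
Number of probes (horizontal) above 3 (red) and below 1/3 (blue) under the reported processing and each alternative, 1 pair of bars per alternative. Counts above 3 lay between 84 and 133 except without normalization (501), with the background mode subtracted (428) and for probes above 3 under every normalization (79), and counts below 1/3 ran between 0 and 94.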

How the data were processed

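The deposited values are scores that the authors derived from spot intensities quantified with AtlasImage 2.7. The log2 of each probe's values has a mean of 0 and a common SD over the 10 arrays, which was read from the values and is not stated in the methods. For each probe, the smallest set of whole numbers (3000 at most) that yields its 10 scores was taken as its intensities, provided that fewer than 0.01 sets were expected by chance. The other 236 probes were left out. The background threshold of an array lay 3 SD above its mode (kernel density, R 4.3.3). Arrays were normalized by robust linear regression (MASS 7.3.60.0.1) on the mean of the 10 arrays, and quantile normalization (limma 3.58.1) was an alternative. With 1 array per condition there is no test and no error of a ratio, and the number of arrays and the low signal limit the precision. Search and ratios were tested on simulated data. Genotypes follow the series' design text.

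Of 5030 probes, 4633 had 1 gene symbol, 5 several and 392 none in the array annotation. 4624 Entrez IDs were in the RefSeq table (GRCm38.p6). Genes were named by a rule: the 15 highest ratios, the 15 highest lower bounds and the 15 lowest values among probes with 1 symbol, members of 30 gene lists beyond 3-fold with up to 4 others of each, and the PAR, SP and LPS receptor genes. Prg3, Psme1, the probes above background on 1 array alone, the genes above 3 in both genotypes and the list members given beyond those 4 were picked after their values were seen. The members and lists were chosen with earlier results of these data known. Alternatives changed the normalization, background threshold, floor, saline array and fold, and 3 more were added after the data were seen. The SP dose on the sample labels is higher for PAR1-/- than for WT arrays, and no SP ratio is given.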

Additional observations from a re-analysis of the deposited data

Results flagged for a closer look

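For 8 genes the ratio was above 3 in WT bladders and below 1 in PAR1-/- bladders by more than 1 SD of the saline pair (0.46 on the log2 scale), a limit set after the data were seen. With 1 array per condition the difference was not tested. Of the 124 probes above 3 in WT bladders, 92 had a value in PAR1-/- bladders and 22 of those were below 1. The median PAR1-/- fold of all probes with a value was already 0.958. The share of all probes below the limit was not counted, so the 8 are not shown to be more than that share. Clk2 had 6.44 in WT bladders and 0.451 in PAR1-/- bladders. Clk1 had 4.24 and 0.614. Arhgdib had 3.03 and 0.711, and Nrsn1 had 3.56 and at most 0.609. Rps29, by 1 of its 3 probes, had 4.59 and 0.486, and Irf1 had 3.60 and 0.515. Acta2 had 4.10 and 0.34, and Ptpn22 had 3.55 and 0.402. The saline arrays of the 2 genotypes differed for Acta2 and Ptpn22, 7.87-fold and 4.66-fold higher in PAR1-/- bladders, and 1.11-fold to 1.92-fold higher for the other 6. Before normalization all 8 were higher after LPS in both genotypes, by 5.60-fold to 16.3-fold in WT and 1.11-fold to 1.91-fold in PAR1-/- bladders. These quotients include the brightness of the arrays, whose summed intensity was 149853 on PAR1-/- LPS 4 h and 69106 on PAR1-/- saline. Nrsn1, at 17, was at background on PAR1-/- LPS 4 h.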

How the results depend on the processing

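The 124 probes above 3 became 501 without normalization, 428 with the background mode subtracted, 315 at 2-fold, 46 at 5-fold and 79 when required under every normalization. The 20 below 1/3 became 0, 94, 88, 5 and 0 under the same settings, 9 with regression between the 2 arrays alone and 58 with quantile normalization. The median log2 ratio of all probes, 0.15, was 1.11 without normalization and lay between -0.12 and 0.46 elsewhere. The SD of the saline pair, 0.46, was 0.74 with the background subtracted. The cause of these moves was not tested. All 124 probes above 3 kept a value above 1 under every alternative except with PAR1-/- saline as the reference, where Ptpn22 (0.762), Acta2 (0.522) and Ajuba (0.903) reversed. No probe below 1/3 reversed. Other counts stayed within 1.5 times: 84 to 133 above 3 and 14 to 27 below 1/3. No paired analysis was possible because each condition has 1 array. Because of low signal 2525 of 4794 probes have no value, and 59 of the 124 above 3 have only a bound.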
